A study of Homo sapiens with 4 samples.

Results

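The 2 libraries of triple-knockout cells, tKO 1 and tKO 2, were compared gene by gene with each other, with the 2 double-knockout libraries, dKO 1 and dKO 2, as the baseline. Genes entered the comparison when their CPM, the counts scaled to a library total of 1e6, exceeded 5 in at least 2 of the 4 libraries, which 11537 of the 57820 genes in the files did. The genes that start below about 57 Mb on chromosome 3 (279 genes) and below 39 Mb on chromosome 10 (106 genes) of GRCh37 were left out, so that 11152 genes remained. The question was which genes and functions differed between libraries of the same genotype, and which of them departed from dKO. Each side holds 1 library, so all differences are descriptions of these libraries and carry no test.

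All libraries came from untreated HAP1 cells, a nearly haploid human line derived from a chronic myeloid leukaemia. RING1A and RING1B were inactivated in all 4 libraries, and BAP1 was inactivated in addition in the tKO libraries. A STOP cassette had been inserted into RING1A and BAP1, and the RING1B knockout line was obtained commercially. The study's methods speak of independent biological replicates, and whether tKO 1 and tKO 2 stem from the same clone is not given in the sources used here. Clone, passage and culture therefore cannot be told apart in any difference between them.

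RING1A and RING1B are the ubiquitin ligases of Polycomb repressive complex 1 (PRC1) and place ubiquitin on lysine 119 of histone H2A, a mark found at silenced developmental genes. BAP1 is the deubiquitinase that removes it, as the catalytic part of the PR-DUB complex. Cells without RING1A, RING1B and BAP1 lack both the writers and the main eraser of this mark.

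The libraries held between 16054590 (tKO 2) and 18455410 (dKO 1) counts in genes, and 3 counts, taken as the floor of detection, correspond to 0.164 to 0.185 CPM. BAP1 (chromosome 3, inside the stretch left out) had 2046 and 2010 counts in dKO 1 and dKO 2 against 158 in tKO 1 and 107 in tKO 2, so that it was low in both tKO libraries. RNF2, the gene of RING1B, was at 77.5, 86.0, 77.7 and 68.1 CPM in dKO 1, dKO 2, tKO 1 and tKO 2, and RING1, the gene of RING1A, at 12, 17, 12 and 13 counts. Of the haematopoietic markers 7 of 18 had no count in any library, among them SPI1, MPO and GATA1, and the summed level of the list was between 42.2 and 50.5 CPM. Most of that sum came from TAL1, at 22.4 to 27.5 CPM, and CORO1A, at 14.3 to 16.3 CPM. Of the epithelial markers 4 of 12 had no count, including EPCAM, with sums of 19.4 to 24.6 CPM. Neural markers summed to between 940 and 1136 CPM, mostly from SOX2, at 665 to 869 CPM, and NES, at 120 to 203 CPM. Of the 12, ELAVL4 had no count. DCX and ELAVL3 had at most 2 counts in any library, STMN2 at most 7 and GFAP at most 11. TUBB3 was at 1.11 to 1.71 CPM, PAX6 at 36.3 to 51.1 CPM and MAP2 at 26.1 to 45.3 CPM. Mesenchymal markers summed to 811 and 759 CPM in dKO 1 and dKO 2, 520 CPM in tKO 1 and 730 CPM in tKO 2, with COL1A2, COL3A1 and PDGFRB at 0 counts. FN1 was at 89.5 to 106 CPM, PDGFRA at 79.8 to 103 CPM and THY1 at 40.2 to 76.6 CPM. The low sum in tKO 1 followed VIM, the intermediate filament protein vimentin, at 518, 475, 266 and 487 CPM in dKO 1, dKO 2, tKO 1 and tKO 2. VIM lies in the chromosome 10 stretch that was left out, and the part of these markers in the differences between the tKO libraries was not tested.

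Of the 11152 genes, 204 differed by more than 2-fold between the tKO libraries. In tKO 2, 117 genes (1.05%) were lower and 87 (0.78%) were higher than in tKO 1. Between dKO 2 and dKO 1 the corresponding numbers were 1 lower (0.00897%) and 2 higher (0.0179%). Those 3 genes were AKAP6, IPCEF1 and PER2, and IPCEF1 was also among the 204. The standard deviation of the log2 ratio over genes was 0.38 in the tKO pair and 0.19 in the dKO pair, while the medians of the absolute log2 ratio were nearer to each other, at 0.16 and 0.11. The tKO pair thus differed mainly in a tail of genes. That tail was widest among genes of low level, with 97 of 1210 genes (8.02%) apart at a mean of up to 10 CPM, 51 of 1631 (3.13%) from 10 to 20 CPM, 37 of 3258 (1.14%) from 20 to 50 CPM and 5 of 2470 (0.202%) above 100 CPM. The dKO pair had 2 genes apart at up to 10 CPM, 1 from 10 to 20 CPM and 0 above. In RNA from bulk cultures, fewer cells that express a gene and less RNA per cell cannot be told apart.

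**Figure D1:**
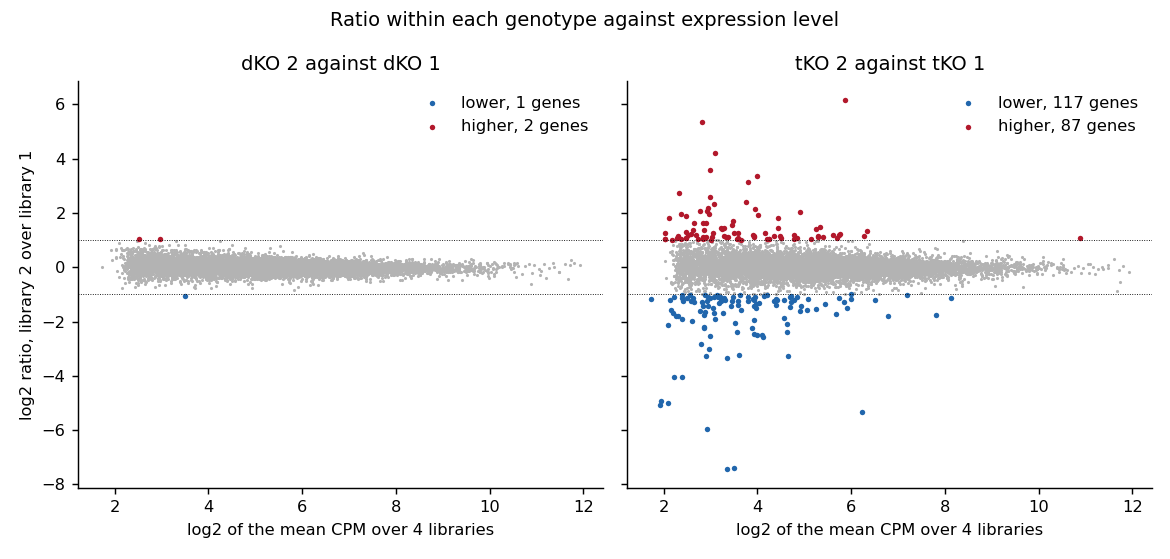
Log2 ratio of library 2 over library 1 (vertical axis) against the log2 of the mean CPM over the 4 libraries (horizontal axis) for 11152 genes, in the dKO pair on the left and the tKO pair on the right. Coloured points lie beyond 2-fold (dotted lines), with 3 genes in the dKO pair and 204 in the tKO pair.

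The library that stood further from dKO was tKO 2. Against the mean of the dKO libraries on the log2 scale, 91 genes (0.816%) were more than 2-fold lower and 54 (0.484%) more than 2-fold higher in tKO 2, and 27 (0.242%) were lower and 18 (0.161%) higher in tKO 1. The standard deviation of the log2 ratio to dKO was 0.34 for tKO 2 and 0.24 for tKO 1. These ratios share the same dKO libraries and are set side by side for that reason only. Among the 204 genes, tKO 1 was the one nearer to dKO in 150, that is in 99 of the 117 genes lower in tKO 2 and in 51 of the 87 genes higher in tKO 2. A departure of more than 2-fold in tKO 2 alone, with tKO 1 within 0.5 of dKO on the log2 scale, was seen in 66 genes, 49 of them lower and 17 higher in tKO 2. The reverse, a departure in tKO 1 alone, was seen in 7 genes, namely FAM20C, MAF, FAM43B and PPP2R2C, which were low in tKO 1, and MYBPC1, LINC02487 and ENSG00000117289.7, which were high there. In 43 genes the tKO libraries lay on opposite sides of dKO, each by more than 0.5 on the log2 scale, and in 23 both lay on the same side by more than 0.5. Both dKO libraries fell between the tKO libraries in 142 of the 204 genes, or 69.6%. The 204 genes were picked for a wide gap between the tKO libraries, which itself makes such an order likely. The same share over all genes compared was not taken.

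**Figure D2:**
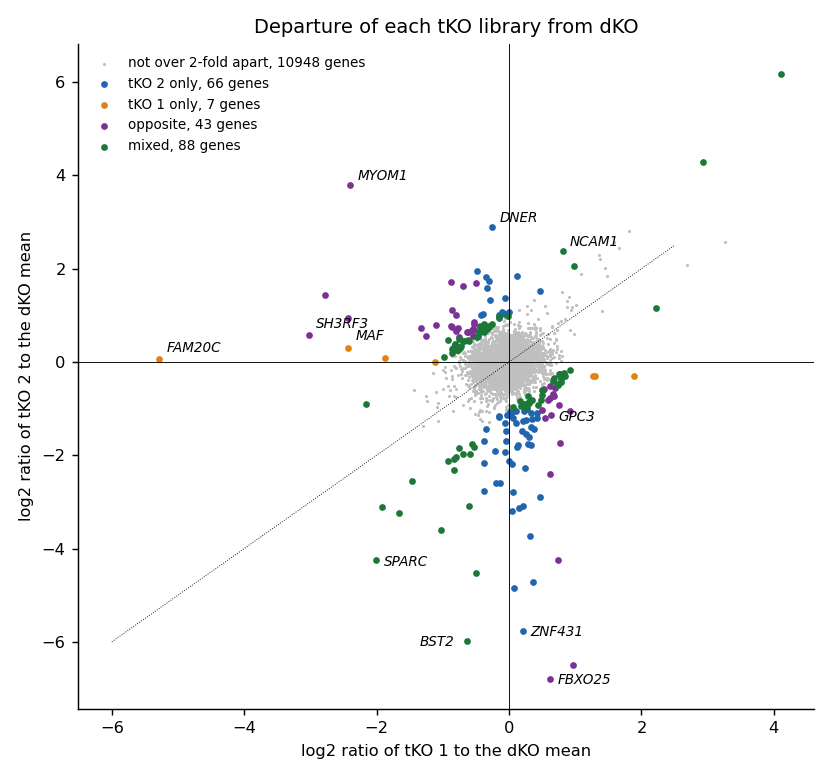
Log2 ratio to the dKO mean in tKO 1 (horizontal axis) and tKO 2 (vertical axis) for 11152 genes. Colours give the pattern of the 204 genes over 2-fold apart between the tKO libraries, of which 66 departed in tKO 2 only, 7 in tKO 1 only and 43 in opposite directions. The dotted diagonal marks equal departure, and genes such as ZNF431 and FBXO25 lie far below it while MYOM1 lies above.

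Several genes were all but absent from 1 tKO library and present in the 3 others. With at most 2 counts in tKO 2 and at least 50 in each other library there were 6 such genes. FBXO25, which encodes an F-box protein of an SCF ubiquitin ligase (chromosome 8, 356428 to 427967, plus strand), had 228, 236 and 319 counts in dKO 1, dKO 2 and tKO 1 and 0 in tKO 2, at least 106-fold lower at the floor of 3 counts. ENSG00000272005.1, a gene with no symbol or position in the annotation used, had 180, 196 and 327 counts and 0 in tKO 2, at least 109-fold lower. The Krüppel-type zinc-finger gene ZNF431 (chromosome 19, 21324827 to 21378856, plus strand) had 204, 149 and 180 counts in these libraries and 1 in tKO 2, a ratio of 179 between tKO 1 and tKO 2 with a 95% counting interval of 31.8 to 7116. All 3 genes were within or above the dKO range in tKO 1 and at 0 or 1 count in tKO 2.

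NUDT7, which encodes a coenzyme A hydrolase of peroxisomes (chromosome 16, 77756389 to 77776157, plus strand), had 66, 104 and 95 counts in dKO 1, dKO 2 and tKO 1 and 1 in tKO 2 (ratio 94.6, counting interval 16.6 to 3774). GALNT5, which starts O-linked glycan chains on mucin-type proteins (chromosome 2, 158114217 to 158175003, plus strand), had 84, 100 and 86 counts and 1 in tKO 2 (ratio 85.6, interval 14.96 to 3420). LRATD2 (chromosome 8, 127564688 to 127570723, minus strand) had 59, 111 and 122 counts and 2 in tKO 2 (ratio 60.7, interval 16.5 to 507). The opposite case was a single gene, FAM20C (chromosome 7, 192969 to 300711, plus strand), which encodes the Golgi kinase of secreted proteins. It had 172 and 165 counts in dKO, 2 in tKO 1 and 155 in tKO 2, a ratio of 77.9 with an interval of 21.2 to 649. FAM20C in tKO 2 was thus at the dKO level, and tKO 1 was the library without it. Intervals and floors cover counting error only, since reads amplified by PCR are not independent molecules.

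For the 6 genes with a position, 20 flanking measured genes were read, up to 2 on each side, and 3 of them were over 2-fold apart, beside 1.83% of all genes compared. Those were ZNF708 and ZNF738 next to ZNF431, both lower in tKO 2, and MAF beyond NUDT7, which was higher in tKO 2. The gap to the next measured gene was as wide as 1480906 bases for ZNF431 towards ZNF14 and as narrow as 140 bases for GALNT5 towards ERMN. ERMN, at a log2 ratio of 0.99, was higher in tKO 2 while GALNT5 was lower.

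**Figure D3:**
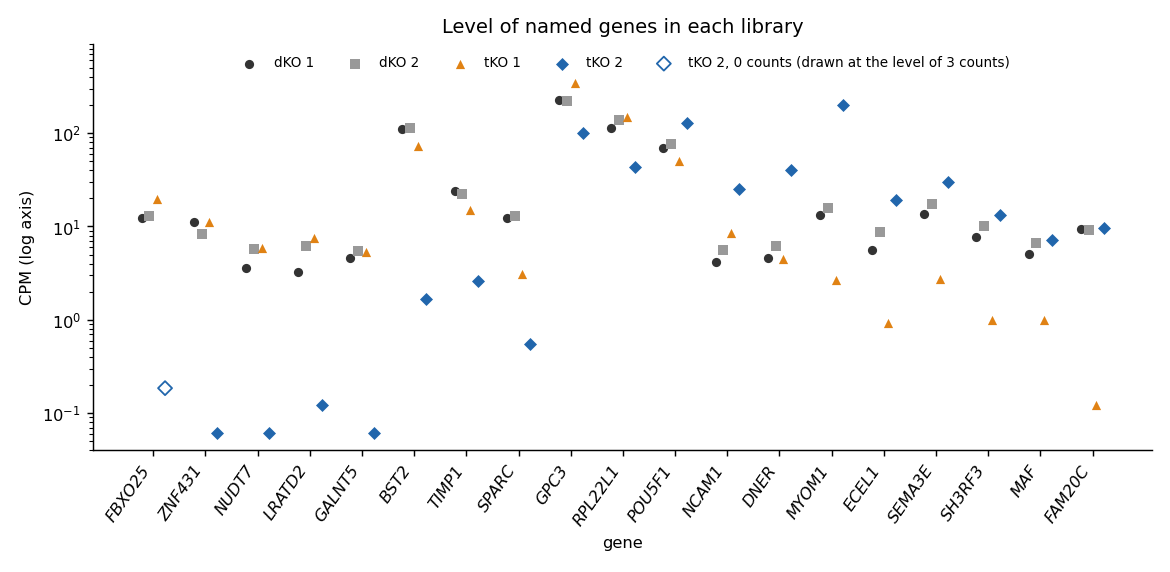
CPM (log axis) of 19 named genes in dKO 1, dKO 2, tKO 1 and tKO 2, with the open symbol for a library with 0 counts drawn at the level of 3 counts. From FBXO25 to RPL22L1 the tKO 2 symbol lies below the other 3, and from POU5F1 to SH3RF3 it lies above them. For MAF and FAM20C it sits with the dKO symbols, and the tKO 1 symbol lies below.

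Promoters are printed for 4 genes with some of the widest ratios, to show that they ranged from rich to poor in CpG, the dinucleotide at which DNA is methylated. Each run is 300 bases, 250 before and 50 after the start of the RefSeq gene on GRCh38.p14, read 5′ to 3′ on the strand of the gene, with CG in capitals (a motif that reads the same on both strands). ZNF431, all but absent in tKO 2, is at chr19:21141790-21142089 on the plus strand, FAM20C, all but absent in tKO 1, at chr7:192321-192620 on the plus strand, BST2, low in tKO 2, at chr19:17405581-17405880 on the minus strand, and MYOM1, high in tKO 2, at chr18:3219919-3220218 on the minus strand.
ZNF431: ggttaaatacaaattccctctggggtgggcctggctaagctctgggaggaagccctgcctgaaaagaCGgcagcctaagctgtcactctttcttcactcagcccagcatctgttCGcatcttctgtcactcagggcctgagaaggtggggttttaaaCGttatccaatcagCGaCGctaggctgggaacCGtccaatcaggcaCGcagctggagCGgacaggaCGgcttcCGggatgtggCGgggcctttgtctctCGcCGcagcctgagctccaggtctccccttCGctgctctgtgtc
FAM20C: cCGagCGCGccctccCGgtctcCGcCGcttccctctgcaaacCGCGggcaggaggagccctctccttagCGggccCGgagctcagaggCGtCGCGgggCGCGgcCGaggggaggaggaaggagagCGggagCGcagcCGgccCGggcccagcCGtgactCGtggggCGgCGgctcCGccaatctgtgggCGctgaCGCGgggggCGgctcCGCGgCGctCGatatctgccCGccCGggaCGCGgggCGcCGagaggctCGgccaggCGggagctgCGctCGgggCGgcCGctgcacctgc
BST2: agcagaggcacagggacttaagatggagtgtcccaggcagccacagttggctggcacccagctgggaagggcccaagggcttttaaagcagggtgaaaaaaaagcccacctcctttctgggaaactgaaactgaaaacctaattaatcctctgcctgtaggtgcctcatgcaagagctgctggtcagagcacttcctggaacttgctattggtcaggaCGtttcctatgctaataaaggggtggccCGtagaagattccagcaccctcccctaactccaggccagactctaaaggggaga
MYOM1: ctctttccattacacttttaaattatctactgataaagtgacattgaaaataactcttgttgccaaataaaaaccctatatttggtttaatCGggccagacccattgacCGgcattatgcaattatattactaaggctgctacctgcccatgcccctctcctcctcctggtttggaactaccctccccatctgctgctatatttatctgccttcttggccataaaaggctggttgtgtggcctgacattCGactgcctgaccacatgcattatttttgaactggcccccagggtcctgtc

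ZNF431 held 14 CpG and FAM20C 45, against 2 in BST2 and 3 in MYOM1. As many or more were present in 50.1%, 3.39%, 88.5% and 81.0% of the 27305 promoters of the table, in that order. At least 10 CpG were found in 63 of the 83 promoters (75.9%) matched for genes lower in tKO 2, in 54 of 62 (87.1%) for genes higher in tKO 2 and in 8100 of 8737 (92.7%) for genes not apart. The medians of the mean CPM of these groups were 11.2, 10.1 and 44.7, and the shares were not split by level. Among all measured zinc-finger genes of chromosome 19 the share was 123 of 125 (98.4%). DNA methylation was not measured in these libraries.

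Of the 10 genes with the widest ratios lower in tKO 2, BST2 (chromosome 19, 17513748 to 17516439, minus strand) was the most abundant. BST2 encodes tetherin, an interferon-induced membrane protein that holds back budding viruses. It was at 112 and 113 CPM in dKO 1 and dKO 2, 72.3 CPM in tKO 1 and 1.67 CPM in tKO 2, a ratio of 43.3 between the tKO libraries (counting interval 29.6 to 66.0). The tKO 1 level was itself below both dKO libraries, by 0.64 on the log2 scale. ANK1, the erythrocyte ankyrin that ties membrane proteins to spectrin, was at 6.16, 6.50, 7.88 and 0.371 CPM in dKO 1, dKO 2, tKO 1 and tKO 2. PRUNE2 was at 8.56, 15.1, 15.7 and 1.42 CPM, so that tKO 2 was far below while the dKO libraries also differed between themselves (log2 ratio 0.81). ENSG00000269640.1, which has no symbol in the annotation used, had 123, 127, 78 and 3 counts, a ratio of 25.9 with an interval of 8.54 to 128.

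STAT6, the transcription factor of interleukin 4 signalling, was outside those 10 genes and was chosen after its values were seen. It was at 29.6, 32.6 and 34.5 CPM in dKO 1, dKO 2 and tKO 1 and at 3.46 CPM in tKO 2 (log2 ratio -3.28). Here tKO 1 stood slightly above both dKO libraries.

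Leaving out the 10 genes with the widest ratios, the 6 most abundant genes lower in tKO 2 showed smaller ratios. GPC3, a heparan sulfate proteoglycan anchored to the cell surface, was at 225 and 220 CPM in dKO, 345 CPM in tKO 1 and 101 CPM in tKO 2, and the tKO libraries lay on opposite sides of dKO. RPL22L1, a paralog of the ribosomal protein RPL22, was at 114, 137 and 150 CPM in dKO 1, dKO 2 and tKO 1 and at 42.9 CPM in tKO 2, so that tKO 2 alone was low. It was the 1 member of the 74 measured cytosolic ribosomal protein genes (1.35%) over 2-fold apart, beside 1.83% of all genes compared.

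ZFAND5, a zinc-finger protein that binds ubiquitin, was at 255, 235, 438 and 197 CPM in dKO 1, dKO 2, tKO 1 and tKO 2, and the nuclear noncoding RNA MALAT1 at 117, 142, 218 and 107 CPM. In both, the larger departure from dKO was a higher level in tKO 1, by 0.84 and 0.76 on the log2 scale, against -0.31 and -0.26 in tKO 2. LIMCH1, which activates non-muscle myosin, was at 94.0, 99.7, 119 and 52.2 CPM, and PPFIA2, the presynaptic protein liprin alpha 2, at 79.4, 74.1, 69.1 and 34.4 CPM. For LIMCH1 and PPFIA2 tKO 2 was the low library.

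The widest ratio among genes higher in tKO 2 was that of MYOM1 (chromosome 18, 3066805 to 3219966, minus strand), which encodes myomesin, a protein of the sarcomere M-band. It was at 13.3 and 15.6 CPM in dKO, 2.65 CPM in tKO 1 and 201 CPM in tKO 2, a ratio of 75.8 (counting interval 56.1 to 105). Both tKO libraries departed from dKO, by -2.40 in tKO 1 and 3.79 in tKO 2 on the log2 scale. DNER, a transmembrane protein with EGF repeats like those of Notch ligands, was at 4.63, 6.12 and 4.43 CPM in dKO 1, dKO 2 and tKO 1 and at 40.1 CPM in tKO 2 (ratio 9.05, interval 7.09 to 11.7). For DNER the departure was in tKO 2 alone.

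In a further group the ratio came largely from a low level in tKO 1. SH3RF3, a protein with SH3 and RING domains, was at 7.74 and 10.0 CPM in dKO, 0.985 CPM in tKO 1 and 13.2 CPM in tKO 2. ECEL1, a membrane peptidase of neurons, was at 5.61, 8.71, 0.923 and 19.04 CPM, and the secreted guidance ligand SEMA3E at 13.6, 17.5, 2.77 and 29.7 CPM. In these 3 genes tKO 1 lay from 2.43 to 3.02 below dKO on the log2 scale and tKO 2 from 0.58 to 1.43 above it. MAF, a basic leucine zipper transcription factor, was at 5.07, 6.67, 0.985 and 7.23 CPM, with tKO 2 near dKO.

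FNDC1, ENTREP2 and CLSTN2 completed the 10 with the widest ratios. They were at 18.4, 17.9 and 31.8 CPM in tKO 2 against 3.57, 2.89 and 5.85 CPM in tKO 1, with dKO libraries between 4.42 and 8.65 CPM. CLSTN2, a calsyntenin of synapses, departed in tKO 2 alone, and for FNDC1 and ENTREP2 the tKO libraries lay on opposite sides of dKO.

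The most abundant gene over 2-fold apart was MT-RNR2, the mitochondrial 16S ribosomal RNA, at 2491 and 1607 CPM in dKO, 1118 CPM in tKO 1 and 2376 CPM in tKO 2. The dKO libraries themselves differed by 0.63 on the log2 scale, and tKO 2 lay between them. Of the 15 measured mitochondrial genome genes it was the only one apart, and the median log2 ratio of the list was 0.04. POU5F1, the pluripotency factor OCT4, was at 69.9, 76.9, 50.7 and 128 CPM in dKO 1, dKO 2, tKO 1 and tKO 2, with the tKO libraries on either side of dKO.

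The multidrug efflux pump ABCB1 was at 49.7, 46.6, 35.6 and 75.1 CPM in the same order, the endosomal neuronal protein NSG1 at 53.9, 55.9, 31.1 and 71.4 CPM, and the tetraspanin TSPAN18 at 49.7, 52.2, 34.7 and 82.2 CPM. All 3 were lowest in tKO 1 and highest in tKO 2. TRIM9, a ubiquitin ligase of neurons, was at 62.4, 61.2 and 57.7 CPM in dKO 1, dKO 2 and tKO 1 and at 127 CPM in tKO 2, which alone departed. The kinase gene ABL1, chosen after its values were seen because HAP1 cells carry a BCR-ABL1 fusion, showed the order of POU5F1, at 40.7, 35.4, 22.2 and 62.9 CPM. BCR was at 26.4, 25.4, 20.6 and 33.9 CPM, in the same order but not over 2-fold apart.

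In 23 genes both tKO libraries departed from dKO on the same side, and the tKO libraries differed in how far. SPARC, a collagen-binding matrix protein, was at 12.4 and 13.1 CPM in dKO, 3.08 CPM in tKO 1 and 0.556 CPM in tKO 2. Far above dKO in both were ASTN1 and JAKMIP2, named after their values were seen. ASTN1, a neuronal adhesion protein of migrating neurons, had 3 and 4 counts in dKO, 84 in tKO 1 and 355 in tKO 2, and JAKMIP2 had 12 and 22 counts in dKO, 123 in tKO 1 and 318 in tKO 2. NCAM1, the neural cell adhesion molecule, was at 4.14 and 5.62 CPM in dKO, 8.56 CPM in tKO 1 and 25.5 CPM in tKO 2. For these 4 genes tKO 2 was the library further from dKO. Among the 23, CHST15 and PTCHD1, also named after their values were seen, went the other way. CHST15 had 96, 121, 20 and 50 counts in dKO 1, dKO 2, tKO 1 and tKO 2, and PTCHD1 had 190, 243, 896 and 429.

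Functions were read from 38 gene lists, given by counts and medians beside those of all 11152 genes, for which the median log2 ratio of tKO 2 to tKO 1 was 0.00. In 18 lists no member was over 2-fold apart, beside 1.83% of all genes compared. They covered DNA replication (34 measured genes), mitosis (32), p53 targets (19), HIF targets (19), cholesterol synthesis (22), NRF2 and glutathione genes (17), metallothioneins (5), heat shock genes (10), MHC class I and antigen processing (12), YAP and TEAD targets (16), the Wnt pathway (30), the TGF-beta and BMP pathway (37), HOX genes (21), imprinted genes (23), the BCL2 family (16), PRC1 and PRC2 subunits (37), PR-DUB subunits and partners (11) and the DNA methylation machinery (19). At the share of all genes, lists this short can hold no member apart, and none of them is read as unchanged. A further 13 lists had 1 member apart, and 7 had 2 or more. Counts of a few members in short lists describe those genes only. Of the 204 genes, 157 belonged to no list.

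The list with by far the most members apart was that of zinc-finger genes on chromosome 19, picked by symbol prefix. Most are repressors with a KRAB domain that recruit KAP1 and H3K9 methylation, and they lie in tandem clusters. Of 141 measured members, 20 (14.2%) were over 2-fold lower in tKO 2 than in tKO 1 and 0 were higher, beside 1.05% and 0.78% of all genes. Most of the 20 were of low level, where more genes of any kind were lower. Those were 54 of 1210 genes at a mean of up to 10 CPM and 30 of 1631 from 10 to 20 CPM. With the filter at CPM above 20, 2 members were lower, beside 37 genes lower in all, and the list median was -0.32. The number of members that pass this filter was not taken, so no share is given. The median log2 ratio of the list was -0.43, with 126 of 141 members below 0. Of the other 581 measured genes of chromosome 19, 8 (1.38%) were lower and 1 was higher, with a median of 0.05. Zinc-finger genes on other chromosomes, 208 measured, had 1 member lower (0.481%), ZNF436, and a median of -0.08. This pattern was known when the list was made.

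By their median, the chromosome 19 zinc-finger genes lay further from the dKO mean in tKO 1 than in tKO 2. Against the dKO mean their median was 0.30 in tKO 1, with 128 of 141 above dKO, and -0.10 in tKO 2, with 96 of 141 below dKO. The dKO libraries also differed here, with a median of -0.19 for dKO 2 over dKO 1. That gap is between single libraries, while the departures are from the mean of both, so their sizes cannot be compared directly. Medians against each dKO library alone were not taken, and the order of tKO 1 and tKO 2 may depend on that baseline. By position, the tKO 2 median was -1.47 at 20 to 30 Mb and between -0.16 and -0.04 in the other stretches. The 4 members with the widest ratios, ZNF431, ZFP28, ZNF790 and ZNF28, were low in tKO 2.

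ZFP28, a KRAB zinc-finger gene, was at 9.16, 9.31, 10.6 and 0.989 CPM in dKO 1, dKO 2, tKO 1 and tKO 2. ZNF790 was at 5.996, 4.63, 5.29 and 1.11 CPM, and overlaps ZNF345 on the other strand, which had 108, 90, 114 and 31 counts. ZNF28 was at 6.54, 4.68, 10.6 and 2.60 CPM, with the tKO libraries on either side of dKO. In each of these tKO 2 was the lowest library. Reads that mapped equally well to several of these paralogs were not counted, so that levels of members with near-identical copies are uncertain.

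**Figure D4:**
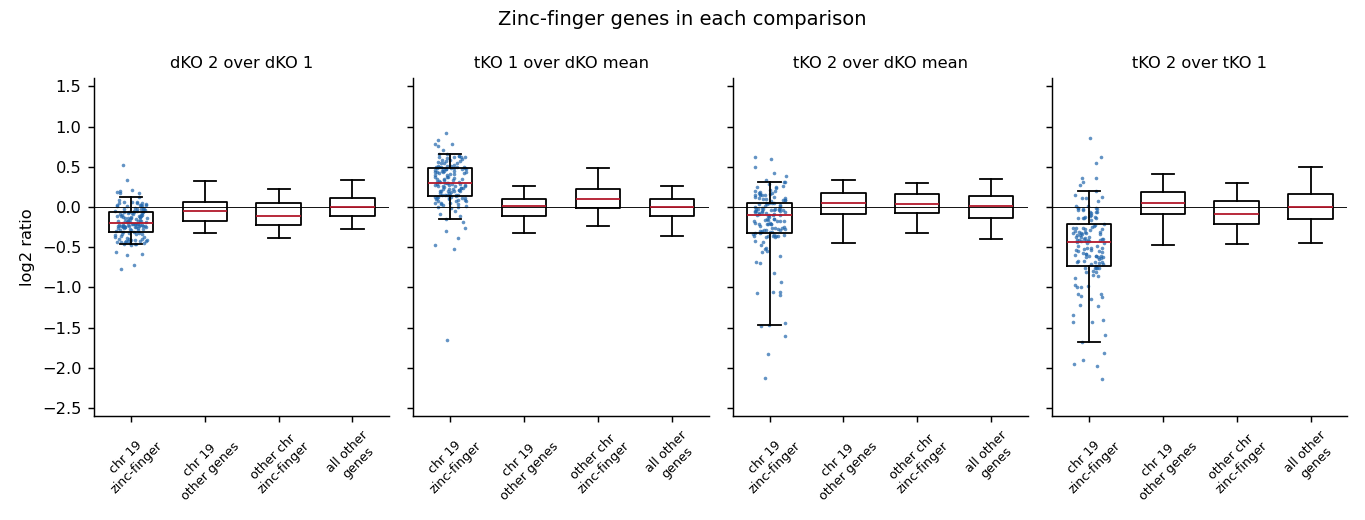
Log2 ratios in 4 comparisons (panels) for zinc-finger genes of chromosome 19 (141), other genes of chromosome 19 (581), zinc-finger genes of other chromosomes (208) and all other genes. Boxes span the quartiles with the median in red, whiskers the 5th to 95th percentiles, and points are the single genes of the first group; ZNF431 and ZFP28 lie below the drawn range in the panels of tKO 2. The first group lies above 0 in tKO 1 over the dKO mean and below 0 in tKO 2 over tKO 1.

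Counts by position held the same zinc-finger genes again and are no separate observation. By chromosome, 28 of 722 genes (3.88%) were lower in tKO 2 on chromosome 19, and the next highest share was 1.38%, on chromosome 13. Of those 28, 20 were the zinc-finger genes above, and 8 were among the other 581 genes of the chromosome (1.38%). Of 250 windows of 10 Mb with at least 15 measured genes, 132 held no gene apart, and 1 had a median log2 ratio beyond 0.5 in size, at 20 to 30 Mb of chromosome 19. There 7 of 15 genes (46.7%) were lower in tKO 2 and the median was -0.54. Of the 9 zinc-finger genes in it, 7 were lower, with medians of 0.13 in tKO 1 and -1.47 in tKO 2 against dKO. In the other 4 stretches of the chromosome the zinc-finger median of tKO 2 over tKO 1 lay between -0.38 and -0.45.

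**Figure D5:**
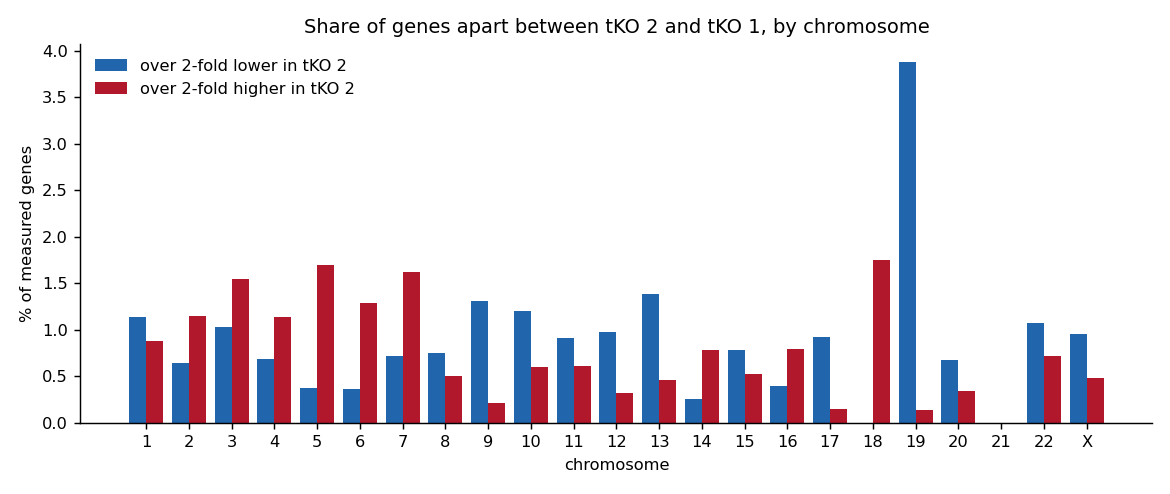
Percentage of measured genes over 2-fold lower (blue) or higher (red) in tKO 2 than in tKO 1, by chromosome. Chromosome 19 reached 3.88% lower with 0.139% higher, and the other chromosomes stayed at or below 1.38% lower. Of the 28 lower genes of chromosome 19, 20 were zinc-finger genes.

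Genes apart in the same direction followed each other directly, among measured genes, in 10 runs holding 24 genes, with 8 of the runs lower in tKO 2. Chromosome 19 held 6 of these runs, the longest being ZNF431, ZNF708, ZNF738 and ZNF100 (21324827 to 21950381). In this run ZNF708 had 183, 168, 193 and 50 counts in dKO 1, dKO 2, tKO 1 and tKO 2, ZNF738 had 321, 338, 320 and 81, and ZNF100 had 326, 315, 295 and 135. Their level in tKO 1 was near that of dKO, and tKO 2 was low throughout. Elsewhere the runs were S100A6 with S100A13, KLF9 with TRPM3, and, higher in tKO 2, SEMA3E with SEMA3A and PLPPR4 with FRRS1.

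The ratio also moved with base composition. Over 5 equal groups of genes by the GC content of their transcripts, the median log2 ratio of tKO 2 to tKO 1 in genes other than chromosome 19 zinc-finger genes went from -0.12 in the lowest group (29.2% to 40.1% GC) through 0.01 in the middle to 0.12 in the highest. Zinc-finger genes of chromosome 19 had medians of -0.68 (38 genes), -0.52 (60), -0.40 (22), -0.14 (7) and 0.07 (14), from the lowest group to the highest. The other genes of the same groups had medians of -0.12, -0.04, 0.01, 0.05 and 0.12. The part of base composition in the differences was not tested.

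Genes higher in tKO 2 covered more of the genome than the others. Their median span was 113 kb, and 46 of 87 (52.9%) were longer than 100 kb, against a median of 30.4 kb and 20 of 110 (18.2%) for genes lower in tKO 2. Genes not apart had a median of 35.8 kb, with 21.3% longer than 100 kb. At a mean of up to 20 CPM the medians were 94.3 kb for genes higher in tKO 2 and 25.1 kb for genes not apart, and above 20 CPM they were 144 kb and 39.3 kb. Lengths of the spliced transcripts were closer, with medians of 4846 bases for genes higher in tKO 2, 4242 for genes lower and 4060 for genes not apart.

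Genes of the extracellular matrix and its turnover had 3 of 34 measured members (8.82%) lower in tKO 2, and 0 higher, with a list median of 0.10. Of all genes compared, 1.05% were lower and 0.78% higher. The members were SPARC, given above, and the metalloproteinase inhibitors TIMP1 and TIMP3. TIMP1 was at 24.04 and 22.1 CPM in dKO, 15.1 CPM in tKO 1 and 2.60 CPM in tKO 2, and TIMP3, which lies within SYN3 on the other strand, at 7.36, 7.60, 2.65 and 1.17 CPM. All 3 were also below dKO in tKO 1, by 0.61 to 2.01 on the log2 scale. In the S100 family of calcium-binding proteins 2 of 4 measured members were lower, S100A6 at 21.9, 27.2, 24.8 and 10.9 CPM and S100A13 at 14.9, 18.51, 15.9 and 6.68 CPM, in dKO 1, dKO 2, tKO 1 and tKO 2. In both, tKO 1 was within the dKO range.

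Interferon-stimulated genes had 2 of 14 measured members (14.3%) lower in tKO 2, beside 1.05% of all genes, and a list median of 0.09. Beside BST2 this was IFITM1, a membrane protein that blocks viral entry, at 7.20 and 10.1 CPM in dKO, 4.86 CPM in tKO 1 and 1.98 CPM in tKO 2. The other 12 members were not over 2-fold apart, and neither was any of the 12 genes of MHC class I and antigen processing. TNFRSF1A, the main receptor for tumour necrosis factor, was at 18.2, 14.5, 12.5 and 2.29 CPM and was the 1 member apart among 19 genes of the TNF and NF-kB pathway. With tKO 1 within 0.5 of dKO on the log2 scale, tKO 2 was the departing library.

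Adhesion receptors had 2 of 30 members apart, in opposite directions, beside 1.83% of all genes compared. CDH3, or P-cadherin, was at 30.6, 27.8, 33.9 and 12.1 CPM, low in tKO 2 only, while NCAM1 was high there. Axon guidance and synapse genes had 1 of 38 (2.63%) lower and 2 (5.26%) higher, beside 1.05% and 0.78% of all genes, with a median of 0.18. The lower one was GRIK2, a kainate receptor subunit, at 28.7, 26.8, 35.0 and 8.04 CPM. The higher ones were SEMA3E and its genomic neighbour SEMA3A, a repellent of growth cones, at 4.25, 6.12, 3.57 and 16.8 CPM.

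Of 87 measured developmental transcription factors, a class rich in Polycomb targets, 2 (2.30%) were lower in tKO 2 and 1 (1.15%) was higher, with a median of 0.00. These shares were near the 1.05% and 0.78% of all genes. SOX21 was at 47.8, 42.0, 60.6 and 23.6 CPM and the proneural factor NEUROG2 at 26.7, 28.4, 38.9 and 16.7 CPM in dKO 1, dKO 2, tKO 1 and tKO 2, each highest in tKO 1 and lowest in tKO 2. HAND2, a factor of heart and limb development, was at 5.996, 5.23, 4.55 and 14.2 CPM, high in tKO 2.

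In the remaining lists with a member apart, the lower genes were SLC16A3, DDIT4, JUN and HES1. The lactate transporter SLC16A3, in the lists of glycolysis and of solute carriers, was at 24.2, 29.9, 13.2 and 2.10 CPM in dKO 1, dKO 2, tKO 1 and tKO 2, low in tKO 1 and lower in tKO 2. DDIT4, an inhibitor of mTOR signalling induced by stress, was at 8.34, 11.8, 12.1 and 5.32 CPM, the immediate early factor JUN at 6.43, 6.72, 6.46 and 2.91 CPM, and the Notch target HES1 at 9.48, 11.8, 10.7 and 4.95 CPM. These 3 were low in tKO 2 and within 0.5 of dKO on the log2 scale in tKO 1. SLC16A3 was the 1 member apart of 18 glycolysis genes and of 189 carriers, DDIT4 of 22 genes of ATF4 and the unfolded protein response, JUN of 13 immediate early genes and HES1 of 21 Notch pathway genes. The share apart over all genes compared was 1.83%.

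The higher genes of those lists were FGF12, PCDHB2, ACTA2 and SYCP2. The intracellular FGF homologue FGF12 was at 7.58, 8.32, 6.03 and 16.2 CPM and the clustered protocadherin PCDHB2 at 7.25, 5.84, 6.401 and 12.9 CPM, both highest in tKO 2. Smooth muscle actin ACTA2 was at 4.58, 5.73, 2.89 and 6.55 CPM, and SYCP2, of the synaptonemal complex of meiosis, at 9.54, 12.5, 5.97 and 13.2 CPM. In ACTA2 and SYCP2 tKO 1 was the library further from dKO. FGF12 was the 1 member apart of 42 FGF and receptor tyrosine kinase genes, PCDHB2 of 2 protocadherins, ACTA2 of 29 cytoskeleton genes and SYCP2 of 4 germline genes, beside 1.83% of all genes compared. Of the genes named by rule, PRUNE2, SLC16A3, ABCB1, NSG1, TSPAN18 and ACTA2 also overlap a gene on the other strand, which the stranded counting keeps separate. Other genes named here were not checked for this. Overlap on the same strand, which stranded counting does not separate, was not read. ZNF28 (53300661 to 53360853) and ZNF468 (53341263 to 53360902), a run of neighbours on chromosome 19, overlap on the minus strand.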

How the data were processed

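RNA-seq counts of 4 HAP1 libraries, 2 dKO and 2 tKO, were used, grouped by the genotype and title in the labels. The authors selected polyadenylated RNA, prepared stranded libraries, trimmed reads with Trim Galore (0.4.4) and cutadapt (1.12) and mapped them to GRCh37 with STAR (2.5.2b), versions being those of the submitters' processing notes. The deposited values were raw counts of uniquely mapped reads per GENCODE 19 gene, not normalised. The column for the antisense strand, the orientation of the kit, was read. Reads on the other strand made up 4.01% to 4.24% and reads outside genes, which were left out of library sizes, 11.9% to 13.2%. Whether reads or fragments were counted was not established.

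CPM used library sizes scaled by TMM factors (0.990 to 1.009) from edgeR (4.0.16) in R (4.3.3), computed on genes with a CPM above 0.5. Log2 ratios were taken between log2-CPM values with a prior count of 2, which understates ratios of genes with few counts. Ratios with intervals are ratios of CPM with exact 95% binomial intervals of the counts. The filter on CPM used unscaled totals. A gene was called apart beyond 2-fold, and no test was run. Positions came from GENCODE 44 lifted to GRCh37, matched on Ensembl identifiers, with a symbol for 98.6% of the 11152 genes. No position was found for 158 genes, so that some may lie in the stretches left out. GC content and transcript length are those of the merged exons of a gene. Promoters came from RefSeq (GRCh38.p14), matched by symbol for 8882 genes.

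Genes were named by rule. In each direction these were the 10 widest ratios and the 6 most abundant others among genes apart, at most 2 of them without a symbol. Genes with at most 2 counts in 1 tKO library and at least 50 in the 3 others, up to 4 genes apart per list, and the targeted genes were added. The genes compared, the lists and the rule were chosen with earlier results of these data known. The counting of genes apart and of their patterns was tested on simulated data. Alternatives were other scalings, filters, thresholds, count columns, a prior count of 0.25, depth thinned to the smallest library, and single dKO libraries as the baseline.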

Additional observations from a re-analysis of the deposited data

How the results depend on the processing

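With RLE size factors, library totals, a prior count of 0.25, unstranded counts or libraries thinned to the smallest total, the numbers of genes apart between the tKO libraries, the patterns, the spreads and the zinc-finger count stayed within 1.5 times the values above, with 203 to 212 genes apart. None of 295 values of the 59 named genes changed direction, and 12 moved by more than 0.19 on the log2 scale, most of them with the smaller prior count.

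The filters mattered most. Genes apart numbered 714 (368 lower and 346 higher in tKO 2) at CPM above 0.5, 57 (37 and 20) at CPM above 20 and 2691 (1314 and 1377) with no filter. With the stretches of chromosomes 3 and 10 kept there were 364, 234 of them lower. Departures in tKO 2 alone numbered 203, 18, 706 and 141 in these 4 settings and departures in tKO 1 alone 75, 2, 473 and 37. The SD of the dKO pair was 0.31 at CPM above 0.5. With no filter it was 0.45, and that of the tKO pair 0.62. Chromosome 19 zinc-finger genes lower in tKO 2 numbered 33, 2 and 41 at CPM above 0.5, above 20 and with no filter. At a fold of 1.5 there were 685 genes apart (339 and 346), and at a fold of 4 there were 43 (28 and 15). In the dKO pair the genes apart numbered 5 after thinning, 219 at CPM above 0.5, 878 with no filter, 118 at a fold of 1.5, and 0 at CPM above 20 and at a fold of 4. Genes over 2-fold from dKO numbered 310, 9, 1233 and 92 in tKO 1, and 536, 38, 1526 and 247 in tKO 2, at CPM above 0.5, above 20, with no filter and with the stretches kept. Of 684 counts of list members, 92 moved by more than 1.5 times, most of them under the other filters.

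With a single dKO library as the baseline, departures in tKO 2 alone numbered 65 to 74 and in tKO 1 alone 10 to 14, the latter being 14 without dKO 1, where 71 genes in place of 45 were over 2-fold from dKO in tKO 1. They were 4 in tKO 1 alone when the other library had to lie within 0.3, and 14 when it had only to lie nearer to dKO than to the departing library. Genes classed as on opposite sides of dKO, 43 as reported, numbered 98 under the first of these rules, which also lowered the limit for a side to 0.3. Under the second the class held 22, because a gene counted as departing in 1 library alone was not counted in it. At CPM above 0.5, above 20 and with no filter the class held 178, 10 and 462 genes. In all these settings more genes departed in tKO 2 alone than in tKO 1 alone. No test was run, with or without pairing by replicate number, and no source says that the numbers pair the libraries. Set against the dKO library of the same number, 62 genes (SD 0.23) were over 2-fold apart in tKO 1 and 155 (SD 0.36) in tKO 2. With 1 library a side, differences between tKO 1 and tKO 2 have no replicate check.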

Other observations

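Below the level used above, 3494 genes passed a minimum of 0.5 CPM in 2 or more libraries but not the minimum of 5. Of these, 251 were over 2-fold lower and 259 higher in tKO 2 than in tKO 1, while 216 were over 2-fold apart in the dKO pair, so that most of this layer could not be read gene by gene. Of them, 3 had at most 2 counts in tKO 2 and at least 50 in each other library, and they were chosen after their values were seen. MGMT, which repairs O6-methylguanine in DNA, had 72, 89 and 132 counts in dKO 1, dKO 2 and tKO 1 and 0 in tKO 2. ANGPTL2, a secreted protein related to angiopoietins, had 67, 72 and 51 counts and 0 in tKO 2. ZNF682, a further zinc-finger gene, had 90, 86 and 121 counts and 1 in tKO 2. In all 3, tKO 2 was the library without the transcript.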
